A study of Homo sapiens with 8 samples.

Results

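786-O is an established human renal cell carcinoma line, and its baseline transcriptome was described from the arrays of cells that had received only the vehicle. Of 8 arrays in the series, 4 carried RNA of cells kept for 6 h in DMSO: 2 arrays of a first Affymetrix type and 2 of a second type, whose replicate numbers bear the letter b. The other 4 arrays carried RNA of cells given 25 μM pentamidine for 6 h and were not analysed here, so no treatment effect is reported. All cells were 786-O, which lacks functional VHL, grown in serum-containing RPMI-1640 medium. The labels call the samples biological duplicates and do not say whether the b arrays carried the same RNA as the others. The cells come from 1 tumour-derived line in culture with no normal kidney sample beside them, and 2 arrays per type limit the precision of every value.

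VHL is the substrate receptor of a ubiquitin ligase that marks hydroxylated hypoxia-inducible factor (HIF) alpha subunits for the proteasome. The prolyl hydroxylases that provide the mark need oxygen, so cells without VHL keep HIF active in normal air. Clear cell renal carcinoma usually arises with VHL loss, and 786-O is widely used as a line that depends on HIF2A, the product of EPAS1. PAX8 is a transcription factor of the renal tubule lineage that renal carcinomas commonly retain.

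Each deposited value is the intensity of a probe set, a group of short probes for 1 transcript, and each gene was taken at its probe set with the highest mean over the 2 DMSO arrays. A gene was called bright from the 90th percentile of all probe sets upward, which was 1724 intensity units on the first type. It was called at background up to the 95th percentile of reference probe sets for genes restricted to tissues such as eye, testis or the olfactory epithelium, which was 30.2 units there. Genes between these limits were called moderate. Probe sets differ in how strongly they bind their target, so a class says how bright a probe set was and is not a ranking of transcript numbers between genes. The classes describe 1 group and carry no test. Values are given as the intensity on array 1 and then on array 2.

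The first array type measured 12165 genes, of which 1516 (12.5%) were bright, 6656 (54.7%) moderate and 3993 (32.8%) at background. The median gene had a mean intensity of 129. The 4 genes used to mark these cells, PAX8, EPAS1, VEGFA and CCND1, were all bright on the first type. The brightest families of this type were ribosomal proteins, translation factors, actin, tubulins, chaperones and respiratory chain subunits. Its lists for leukocytes, endothelium and blood lay mostly at background. The second type measured 8790 genes, of which 1638 (18.6%) were bright, 3253 (37%) moderate and 3899 (44.4%) at background. Its median was 230 and its limits were 177 and 1615. Counts of each gene list below are to be read beside these shares of the same type.

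**Figure D1:**
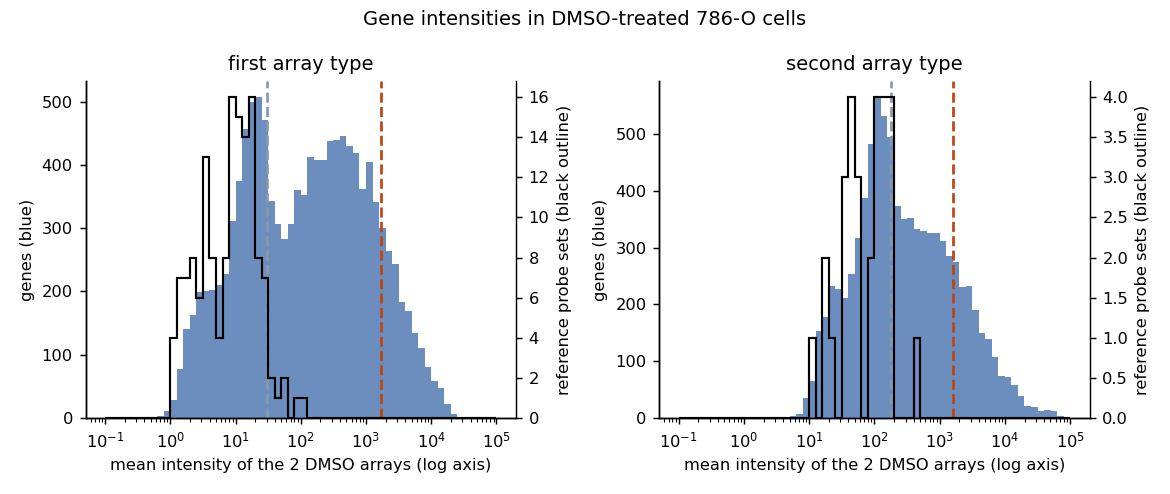
Number of genes (blue, left axis) by mean intensity of the 2 DMSO arrays (log axis) on each array type, with the reference probe sets for tissue-restricted genes as a black outline on the right axis. The grey dashed line is the background limit, 30.2 (first type) and 177 (second type), and the red dashed line is the bright limit, 1724 and 1615.

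The marker genes came first. PAX8 measured 2097 and 1827 units on arrays 1 and 2 by its brightest probe set, a mean of 1962 that lay just above the bright limit on each array. Its 7 other probe sets were moderate, between 124 and 129 for the dimmest and 736 and 1994 for the brightest of them. PAX8 was therefore above background by all 8 probe sets and bright by 1. EPAS1, which encodes HIF2A, measured 4329 and 3882 units. A further EPAS1 probe set was moderate at 78.2 and 161 units, and the EPAS1 probe set of the second type was at background at 10.0 and 31.1. The class of EPAS1 thus ran from background to bright with the probe set. VEGFA, the angiogenic growth factor, measured 4181 and 3696 units, and its 3 other probe sets were moderate. CCND1, or cyclin D1, which drives entry into S phase, measured 2244 and 2209 units, and its other probe set was moderate at 435 and 819. With a gene taken at the median over its probe sets, PAX8, VEGFA and CCND1 became moderate and EPAS1 stayed bright.

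Among 14 genes of the HIF machinery, 4 were bright, 7 moderate and 3 at background on the first type, with a median of 183 against 129 for all genes. The alpha subunits differed widely: EPAS1 was bright, whereas HIF1A measured 25.9 and 31.3 units by its only probe set. Those values straddled the background limit of 30.2, and the mean of HIF1A lay within the range of the reference genes of other tissues. HIF3A, a further alpha subunit that can act as an inhibitor, was at background at 16.2 and 8.61. VHL itself measured 13.9 and 35.9 units and was at background in the mean, with array 2 above the limit. In array 2 alone VHL became moderate, and a limit at the 90th percentile of the reference made both HIF1A and VHL moderate. The other parts of the VHL ligase were present well above background. The elongins ELOC and ELOB, which link VHL to the cullin, measured 7384 and 7451 (ELOC) and 3264 and 3230.1 (ELOB) units. The ring protein RBX1 measured 2304 and 2368 and the cullin scaffold CUL2 measured 1307 and 1356. All of these but CUL2 were bright, and each differed by less than 1.5-fold between arrays.

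The enzymes that hydroxylate HIF alpha were moderate on the first type. EGLN1, the main prolyl hydroxylase in most cells, measured 622 and 671 units there and 5585 and 5384 on the second type, where it was bright. EGLN3 measured 192 and 203 and EGLN2 124 and 128 on the first type. The asparaginyl hydroxylase HIF1AN measured 166 and 171. The beta subunits with which HIF alpha binds DNA were also moderate, with ARNT at 122 and 103 and ARNT2 at 96.1 and 50.0. On the second type EGLN3 and HIF1AN were moderate at 766 and 925 (EGLN3) and 1563 and 1552 (HIF1AN), and EGLN2 was at background.

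**Figure D2:**
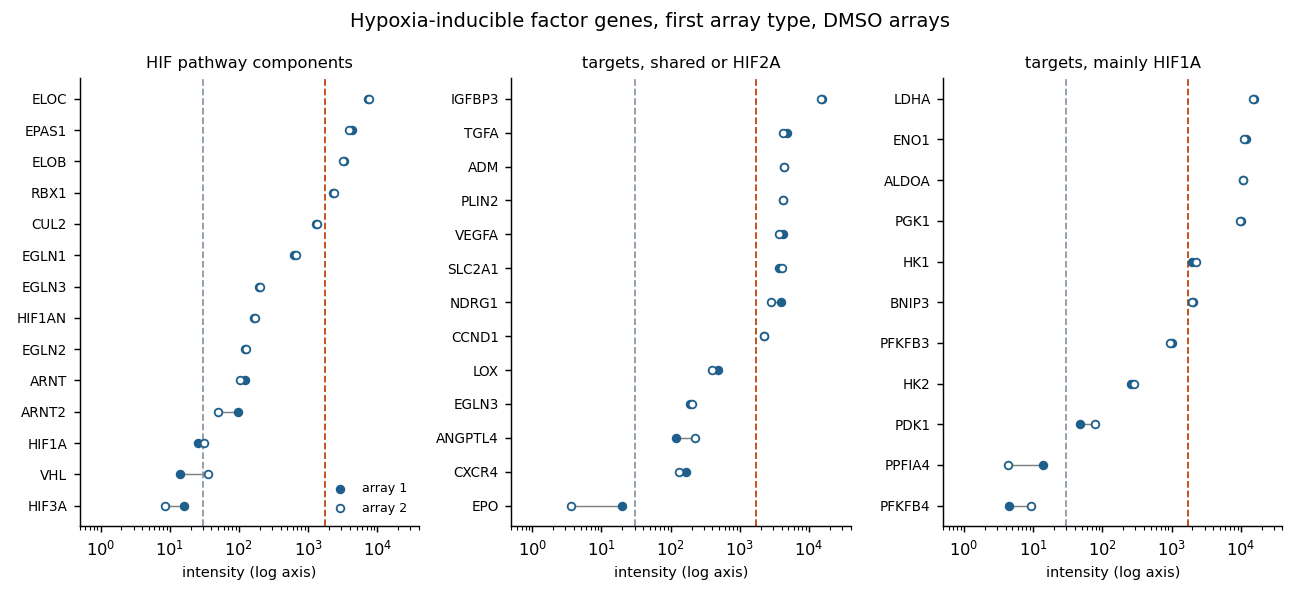
Intensity of HIF machinery genes and HIF target genes on the first array type (log axis), with DMSO array 1 as filled and array 2 as open circles. EPAS1 lies right of the red bright limit on both arrays, while HIF3A lies left of the grey background limit and the arrays of HIF1A and VHL lie on either side of it.

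Most of the measured HIF2A targets were bright. Of 13 measured targets that HIF2A shares or favours, 8 were bright, 4 moderate and 1 at background, with a median of 3390 against 129 for all genes, beside 12.5% of all genes that were bright. IGFBP3, a secreted binding protein of insulin-like growth factors, was the brightest of them at 15329 and 14623 units. TGFA, an EGF receptor ligand and known HIF2A target, measured 4846 and 4235. ADM, the vasodilator peptide adrenomedullin, measured 4307 and 4280.5. These 3 secreted factors stayed within 1.5-fold between the arrays. PLIN2, a coat protein of lipid droplets, measured 4256 and 4207 units, the glucose transporter SLC2A1 3725 and 4062 and NDRG1, a stress-response gene, 3944 and 2837. The moderate members were LOX, a collagen crosslinking enzyme, at 486 and 400.01, the hydroxylase EGLN3, ANGPTL4 at 120.2 and 224 and the chemokine receptor CXCR4 at 166 and 131. EPO, the erythropoietin gene, was at background at 19.6 and 3.69. VEGFA and CCND1, the other bright members, are marker genes described above and add no separate observation here. With the median over probe sets, 5 of the 13 remained bright.

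Targets that HIF1A is known to favour, mostly glycolytic enzymes, were bright in 6 of 11 and at background in 2, with a median of 2011, although HIF1A was at background. LDHA, which makes lactate, measured 15552 and 15019 units, and ENO1, ALDOA and PGK1 measured 11978 and 11113 (ENO1), 10847 and 10875 (ALDOA) and 9907 and 9596 (PGK1). These enzymes are made in nearly all cells, and no cells with functional VHL were analysed here, so their intensity carries no measure of induction. BNIP3, a mitophagy receptor, measured 2069 and 1953 units and the hexokinase HK1 1978 and 2221. PFKFB3 and HK2, which drive glycolytic flux, were moderate at 1001 and 943 (PFKFB3) and 258 and 286 (HK2). PDK1, which holds pyruvate back from the mitochondria, was barely above background at 47.2 and 77.1 on the first type, and a different probe set of the second type measured 1416 and 1268, also moderate. PPFIA4 and PFKFB4 were at background at 14.03 and 4.31 (PPFIA4) and 4.42 and 9.30 (PFKFB4), while PFKFB4 was moderate at 957 and 499 on the second type.

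The promoters of a bright target from each list are shown for the letters of the hypoxia response element core. They are the RefSeq windows from 250 bases before to 50 after the gene start on GRCh38.p14, 5′ to 3′ on the gene's strand, with each ACGTG or its reverse complement CACGT in capitals. LDHA lies at chr11:18394313-18394612 on the plus strand and held 5 matches, and PLIN2 lies at chr9:19127443-19127742 on the minus strand and held 3. The palindrome CACGTG is counted on each strand.
LDHA: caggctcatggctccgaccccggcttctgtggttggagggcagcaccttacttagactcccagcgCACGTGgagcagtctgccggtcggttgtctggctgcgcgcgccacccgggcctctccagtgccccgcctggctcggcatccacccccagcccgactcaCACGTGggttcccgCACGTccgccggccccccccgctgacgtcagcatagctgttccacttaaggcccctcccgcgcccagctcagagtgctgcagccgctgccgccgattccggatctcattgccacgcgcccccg
PLIN2: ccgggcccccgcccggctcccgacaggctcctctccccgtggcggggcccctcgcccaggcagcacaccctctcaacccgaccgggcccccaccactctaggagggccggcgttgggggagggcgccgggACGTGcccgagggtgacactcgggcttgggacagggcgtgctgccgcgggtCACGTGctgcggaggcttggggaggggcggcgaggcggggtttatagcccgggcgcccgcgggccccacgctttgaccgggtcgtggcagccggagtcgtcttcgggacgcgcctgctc
At least 1 match stood in 21.6% of 27305 promoters and 3 or more in 2.08%. It stood in 8 of 14 promoters of the HIF1A-favoured list and in 3 of 10 of the HIF2A list, those of ANGPTL4, LOX and PLIN2. Bright genes of the first type held it in 32.7% of 1268 promoters and genes at background in 17.99% of 2913. The base composition of the promoters was not held equal in these shares. A match describes letters in a short window and not a bound site, and HIF sites farther away lie outside it.

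PAX8 was the 1 bright gene among 11 factors of kidney development and the nephron lineage on the first type, a share near the 12.5% of all genes. Of the others 4 were moderate and 6 at background, the latter beside 32.8% of all genes, and the list's median was 25.6 against 129. WT1, a regulator of the kidney mesenchyme and podocyte, measured 509.8 and 550.4 units and SALL1, of the ureteric and cap mesenchyme program, 438 and 438. PAX2, the close relative of PAX8, was moderate at 87.2 and 41.8 with array 2 near the limit, and LHX1 measured 36.3 and 37.5. SIX2, GATA3, TFCP2L1, EMX2, EYA1 and POU3F3 were at background, from 37.9 and 13.3 for SIX2 down to 1.32 and 1.45 for POU3F3. On the second type IRX3, a tubule patterning factor, was bright at 1689.9 and 1709, and SALL1 was moderate at 1410.5 and 1613.

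Genes for the working products of nephron segments were bright in 2 of 30, moderate in 11 and at background in 17. The list's median was 24.6 against 129, and the shares of all genes were 12.5%, 54.7% and 32.8%. The bright members were DPP4, a brush border peptidase, at 2606 and 2733 units and ASS1, which makes argininosuccinate, at 2213 and 1944. The other enzymes of the brush border were moderate: GGT1 at 1263 and 1526, MME at 799.9 and 749.7 and ANPEP at 408 and 415. SLC4A4, the basolateral bicarbonate cotransporter of the proximal tubule, was moderate at 751 and 648. Other markers of the differentiated proximal tubule were mixed, and most of them lay at background, SLC5A12 and SLC22A2 among them. The amidinotransferase GATM and the endocytic receptor LRP2 were moderate at 93.4 and 58.7 (GATM) and 43.9 and 60.1 (LRP2). The lowest members of the list were at background, with SLC34A1, the phosphate transporter, at 1.60 and 6.90, NAT8 at 1.60 and 4.33 and the organic anion transporter SLC22A8 at 1.86 and 2.12. Genes of the loop, distal tubule and collecting duct were mixed too: AQP3, SCNN1A and SLC12A3 were moderate at 57.9 and 45.5 (AQP3), 64.1 and 33.6 (SCNN1A) and 48.9 and 11.5 (SLC12A3), the last through array 1 alone, and SLC12A1, KCNJ1 and AQP2 were at background. The water channel AQP1 was moderate in the mean through array 1 alone, at 69.6 and 18.6. Of 9 nephron segment genes on the second type, 0 were bright, 1 was moderate and 8 were at background. Those at background there included GATM, LRP2, ANPEP and GGT1.

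Tumour suppressor genes of renal carcinoma were moderate in 9 of 12, bright in 0 and at background in 3. NF2 measured 1339 and 1063 units and RB1 967 and 991. The chromatin genes of the short arm of chromosome 3 that are often lost with VHL were moderate, with SETD2 at 414 and 411 and PBRM1 at 246 and 219. The cell cycle inhibitors CDKN2A and CDKN2B were at background at 11.2 and 41.6 (CDKN2A) and 4.47 and 1.39 (CDKN2B), while their neighbour MTAP was moderate at 162 and 257 on the first type and 1783 and 1233 on the second. In array 2 alone CDKN2A became moderate. The probe set of CDKN2A above is of the kind Affymetrix names _x_at, whose probes may bind related sequences, and without such probe sets CDKN2A measured 3.62 in the mean.

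On the first type the cells carried bright mesenchymal genes and a mixed set of epithelial ones. Of 24 mesenchymal genes 11 were bright, 5 moderate and 8 at background, with a median of 683. Of 29 genes of epithelial adhesion and keratins 6 were bright, 12 moderate and 11 at background, with a median of 43.5. The matrix protein fibronectin, FN1, measured 17289 and 16084 units, the intermediate filament vimentin, VIM, 16456 and 16548 and LGALS1, or galectin 1, 16511 and 16407. CAV1 of caveolae and the hyaluronan receptor CD44 followed at 10358 and 8450.0 (CAV1) and 9759.8 and 8923 (CD44). Cadherins were split: CDH2, or N-cadherin, was bright at 4972 and 5199, and CDH1, or E-cadherin, was at background at 37.8 and 15.8. CDH1 became moderate in array 1 alone. Among transcription factors of the mesenchymal program SNAI2 was bright at 2684 and 2740.2, ZEB1 moderate at 135 and 275 and TWIST1 at background at 21.7 and 1.69. The fibroblast genes FAP, PDGFRB and TAGLN were at background as well, at 9.44 and 3.51 (FAP), 3.42 and 11.7 (PDGFRB) and 10.7 and 31.6 (TAGLN). Of 7 mesenchymal genes on the second type, 0 were bright, 2 moderate and 5 at background, with a median of 74.9 against 230. By other probe sets there, CD44 was moderate at 1427 and 1288 and ZEB1 was at background.

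The epithelial genes that were bright belong to junctions and simple-epithelium keratins. CTNNA1, which ties cadherins to actin, measured 6642 and 5614 units. KRT18 and KRT19 measured 4024 and 4001 (KRT18) and 2192 and 2495 (KRT19), with their partner KRT8 moderate just under the limit at 1507 and 1631. DSG2, a desmosomal cadherin, measured 3563 and 3417, the tight junction scaffold TJP1 2691 and 2255 and claudin 1, CLDN1, 2139 and 3084. CLDN1 was also among the brighter genes of the second type, at 30208 and 31505. It was the 1 bright gene of 7 epithelial ones there, with KRT19 at background at 64.0 and 40.3. EPCAM was moderate at 983 and 909 on the first type. The splicing factor ESRP1, the distal claudin CLDN10 and the basal keratin KRT5 were at background, at 14.2 and 4.18 (ESRP1), 10.0 and 5.41 (CLDN10) and 1.23 and 6.75 (KRT5).

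**Figure D3:**
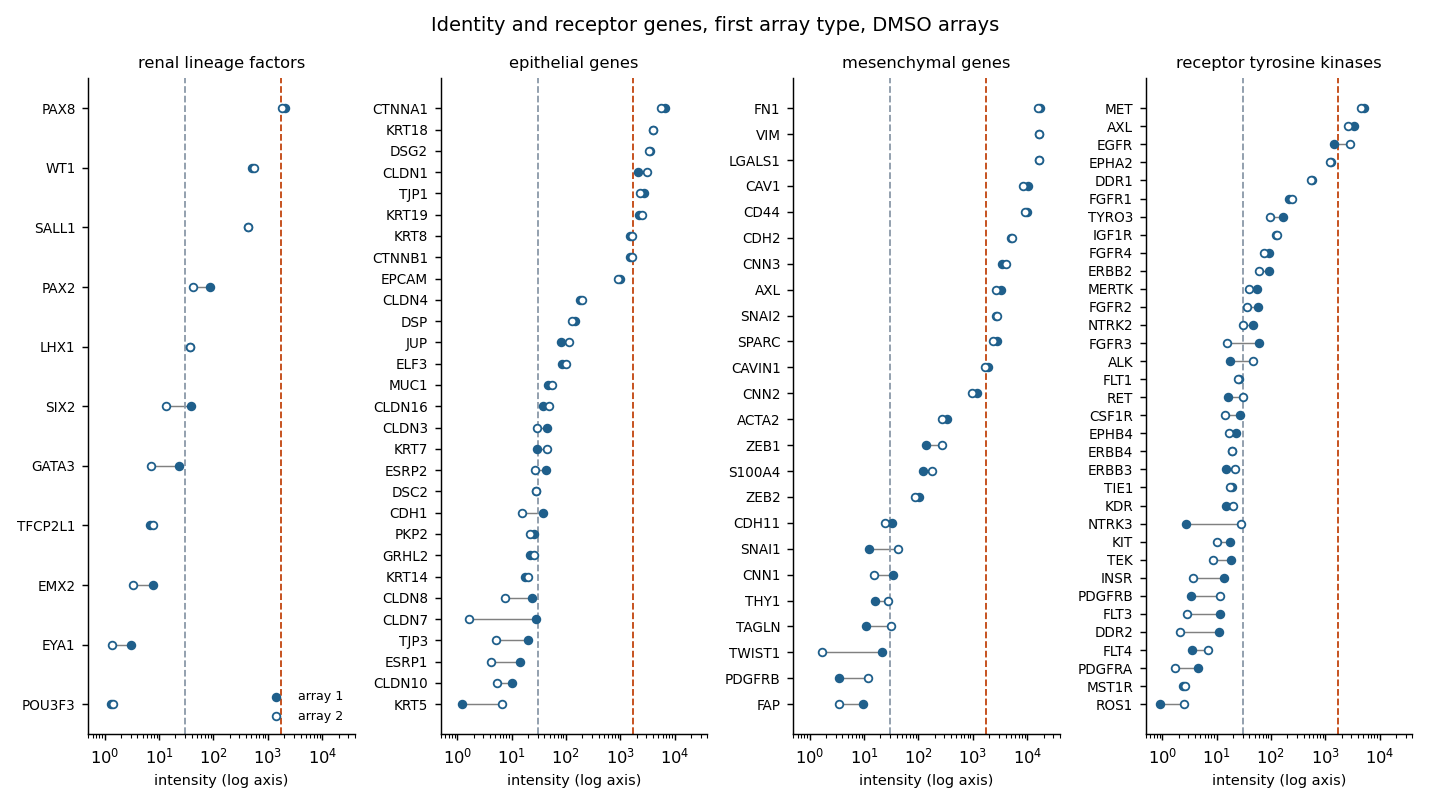
Intensity on the first array type (log axis) of renal lineage factors, epithelial genes, mesenchymal genes and receptor tyrosine kinases, with DMSO array 1 filled and array 2 open. The grey and red dashed lines are the background limit of 30.2 and the bright limit of 1724; CDH2 and VIM lie to the right and CDH1 near the grey line, and EGFR shows the widest gap between arrays among the bright receptors.

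Receptor tyrosine kinases were mostly dim: 3 of 34 were bright, 12 moderate and 19 at background, with a median of 21.8. The corresponding shares of all genes were 12.5%, 54.7% and 32.8%. MET, the hepatocyte growth factor receptor, measured 5187 and 4528 units and AXL, the GAS6 receptor, 3337 and 2656. EGFR measured 1471 and 2811, so that array 1 alone lay under the bright limit and array 2 above it. EPHA2 was moderate at 1266 and 1232, IGF1R at 121 and 131 and ERBB2 at 93.6 and 61.4. The receptors with the lowest means were ROS1, MST1R and PDGFRA, at 0.925 and 2.54 (ROS1), 2.43 and 2.58 (MST1R) and 4.61 and 1.75 (PDGFRA). The endothelial VEGF receptors FLT1, KDR and FLT4 were at background on this type, and their ligand VEGFA was bright. A different probe set of FLT1 was moderate on the second type, at 194 and 299. Of the 7 measured EGF receptor ligands, TGFA and EREG were bright, the latter at 2264 and 2107. HBEGF and NRG1 were moderate at 746 and 717 (HBEGF) and 405 and 450.3 (NRG1), EGF was near the limit at 50.5 and 36.4, and NRG2 and BTC were at background at 20.4 and 35.5 (NRG2) and 38.0 and 15.3 (BTC). Another probe set, on the second type, made BTC moderate, at 484 and 471, and HBEGF was at background at 36.8 and 31.7.

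Several cytokines were among the bright genes of the resting cells. Of 33 measured, 7 were bright, 12 moderate and 14 at background, with a median of 69.7. Over all genes the shares were 12.5%, 54.7% and 32.8%. CXCL8, or interleukin 8, a chemokine for neutrophils, measured 13435 and 12941 units, and IL6, an inflammatory cytokine, 7149 and 6756. CCL20, a chemokine for CCR6-bearing lymphocytes, measured 6156 and 6705. All 3 were bright on both arrays. TNFSF10, the death ligand TRAIL, measured 6211 and 6109 and CXCL1, another neutrophil chemokine, 4903 and 5089.6. CXCL5 and IL32 were bright as well. TNF and IL1B, which act upstream of many of these genes in other settings, were moderate at 117 and 129 (TNF) and 42.2 and 59.8 (IL1B). The lymphocyte cytokines IL4, IL5 and IL17A were at background, at 1.43 and 6.00 (IL4), 0.989 and 3.60 (IL5) and 2.77 and 5.48 (IL17A). The acute-phase protein gene SAA1 was bright but had the widest duplicate gap of the bright genes of the first type, at 1585 and 3901.

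Secreted proteases and their inhibitors were bright in 12 of 27 and moderate in 11, with a median of 1179. TFPI2 and TIMP1, inhibitors of serine proteases and of metalloproteinases, measured 5919 and 6278 (TFPI2) and 4682 and 4457 (TIMP1) units. The membrane protease ADAM10 measured 3560.3 and 3585, its relative ADAM9 3396 and 3268 and the lysosomal protease CTSB 3399 and 3488. The stromelysin MMP10, the collagenase MMP13 and the inhibitor TIMP3 were at background, at 25.5 and 19.1 (MMP10), 8.24 and 8.53 (MMP13) and 20.04 and 8.34 (TIMP3). TIMP2 was bright on the second type at 12718 and 11373. Integrins were bright in 4 of 23, beside 12.5% of all genes. ITGB1, the common beta chain, measured 11817 and 10598 units, ITGAV 4989 and 4084, ITGB5 3090.3 and 3388 and ITGAE 1774 and 1747. The alpha v and beta 5 chains form a vitronectin receptor. ITGB3 was moderate at 719 and 1060.2, and the leukocyte chain ITGAL was at background at 1.76 and 9.07.

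Collagens were bright in 3 of 27, a share near the 12.5% of all genes. They were moderate in 11 and at background in 13, beside 54.7% and 32.8% of all genes. Their median was 36.4 against 129. COL6A3 measured 7132 and 5959 units, and the basement membrane chains COL4A1 and COL4A2 measured 4001 and 3567 (COL4A1) and 2534 and 1817 (COL4A2). Of the other basement membrane chains, COL4A5 was moderate at 131 and 155 and COL4A3, COL4A4 and COL4A6 were at background on this type, with COL4A4 at 2.87 and 2.06. Another probe set made COL4A4 moderate on the second type, at 255 and 131, and COL4A5 was at background there. The fibrillar chain COL1A1, a fibroblast product, was moderate in the mean through array 1, at 72.8 and 19.5, and COL3A1 was at background at 28.7 and 5.41. Of 8 collagens on the second type, 1 was bright, 2 were moderate and 5 were at background.

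The list of lipid droplet and fatty acid genes, which relates to the lipid-filled cytoplasm of clear cell tumours, was bright in 3 of 22, moderate in 13 and at background in 6, with a median of 206, shares near the 12.5%, 54.7% and 32.8% of all genes. SCD, which desaturates fatty acids, measured 4923 and 3677 units and MGLL, which frees fatty acids from monoglycerides, 2784 and 3719.6. PLIN2 was the third bright member. The acyl-CoA synthetase ACSL1 was moderate at 1433 and 1425. CD36, PLIN1 and the liver binding protein FABP1 were at background, with FABP1 at 1.94 and 2.60 and PLIN1 at 1.65 and 2.61. FABP7 was an exception to the agreement of arrays, moderate in the mean but at 576 and 17.8 on the arrays.

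Metallothioneins, the small cysteine-rich proteins that bind zinc and copper, formed a bright family. Of 9 measured, 6 were bright, 1 moderate and 2 at background, with a median of 2716. The promoters of MT2A, the brightest member, and of MT4, at background, are shown because both carry the core letters of the metal response element. They are RefSeq windows on GRCh38.p14 of the same 300 bases around the gene start, at chr16:56608334-56608633 and chr16:56564823-56565122, both on the plus strand, with each TGCACNC or TGCGCNC of either strand in capitals.
MT2A: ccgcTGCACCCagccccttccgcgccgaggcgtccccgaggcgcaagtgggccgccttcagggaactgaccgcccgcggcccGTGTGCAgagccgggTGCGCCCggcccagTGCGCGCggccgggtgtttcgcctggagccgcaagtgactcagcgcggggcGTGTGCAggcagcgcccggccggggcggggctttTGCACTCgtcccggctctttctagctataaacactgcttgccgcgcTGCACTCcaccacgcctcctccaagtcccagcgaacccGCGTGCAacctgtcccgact
MT4: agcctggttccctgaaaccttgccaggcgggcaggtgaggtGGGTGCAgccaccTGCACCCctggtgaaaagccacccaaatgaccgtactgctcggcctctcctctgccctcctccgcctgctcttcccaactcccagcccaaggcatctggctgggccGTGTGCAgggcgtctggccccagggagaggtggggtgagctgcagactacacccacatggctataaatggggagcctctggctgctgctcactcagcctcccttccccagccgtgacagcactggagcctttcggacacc
MT2A held 8 matches and MT4 held 3. All 5 metallothionein promoters that the RefSeq table used here holds, those of MT1B, MT1H, MT1X, MT2A and MT4, held 3 or more, as did 2.27% of 27305 promoters. At least 1 match stood in 29.3% of all promoters. MT4 measured 3.30 and 22.9 units and MT3, a brain form, 7.66 and 12.4.

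MT2A measured 14310.3 and 14738 units on the first type and MT1E measured 8418 and 8554. MT1X and MT1M measured 7070.1 and 6917 (MT1X) and 6114 and 5856 (MT1M). These members were bright on both arrays and stayed within 1.5-fold. MT1F, MT1H and MT1G measured 2704 and 2728 (MT1F), 2201 and 1916 (MT1H) and 1334 and 1379 (MT1G), the last of them moderate. The coding sequences of this family are nearly identical, and every bright member was read by a probe set named _x_at, so signal of different members cannot be told apart here. Without such probe sets 0 metallothioneins were bright.

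Genes of the oxidant and electrophile response controlled by NRF2 were bright in 10 of 16 and moderate in 6, with a median of 2932. PRDX1, a peroxidase, measured 14859 and 14095 units, the ferritin light chain FTL 14364 and 14505 and thioredoxin, TXN, 11659.9 and 10359. NQO1, the quinone reductase often used as a readout of NRF2, measured 4009 and 3906, and GCLM, the modifier subunit of glutathione synthesis, 3479 and 3481. HMOX1, GCLC, AKR1B10 and AKR1C1 were moderate, with AKR1C1 lowest at 211 and 219. Among 8 iron handling genes FTL was joined by TFRC, the transferrin receptor, which was bright at 10277 and 10689. SLC11A2 and HFE were moderate, and TFR2 and the hormone HAMP were at background at 21.3 and 17.2 (TFR2) and 3.09 and 16.9 (HAMP).

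The brightest part of the transcriptome was the machinery of protein synthesis. Of 64 measured cytosolic ribosomal protein genes, 61 were bright and 3 moderate, with a median of 13023 against 129, and all 64 lay within 1.5-fold between the arrays, beside 86.3% of all genes above background. Ribosomal proteins made up 43 of the 100 brightest genes of the first type and 26 of those of the second. RPS20 measured 22526 and 20573 units, RPL23A 20532 and 19958 and RPL7A 19150.2 and 19070.1. The moderate members RPL27A, RPL37A and RPS28 measured 171 and 218 (RPL27A), 128 and 182 (RPL37A) and 134 and 115 (RPS28). Many ribosomal protein genes have near-identical processed copies in the genome, so a probe set may collect more than its own gene. Translation factors were bright in 28 of 33, with EEF1A1, which brings aminoacyl-tRNA to the ribosome, at 19423 and 18376 and the start-site factor EIF1 at 15032 and 15044. EEF1G was at background at 1.60 and 30.9 by the probe set that stands for it.

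Most ribosomal protein genes and some translation genes begin inside a run of pyrimidines, the terminal oligopyrimidine start that ties their translation to growth signals. The windows from 30 bases before to 30 after the RefSeq start on GRCh38.p14 are shown for bright genes of this class, with CTTTC or CTTTT near the start in capitals. RPL7A is at chr9:133348188-133348247 (plus), EEF1A1 at chr6:73521003-73521062 (minus), TPT1 at chr13:45341154-45341213 (minus), RPS3A at chr4:151099598-151099657 (plus) and RPL41 at chr12:56116603-56116662 (plus).
RPL7A: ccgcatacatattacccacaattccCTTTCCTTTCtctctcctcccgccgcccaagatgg
EEF1A1: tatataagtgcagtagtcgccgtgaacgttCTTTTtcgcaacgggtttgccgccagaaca
TPT1: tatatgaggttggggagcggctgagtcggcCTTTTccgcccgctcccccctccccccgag
RPS3A: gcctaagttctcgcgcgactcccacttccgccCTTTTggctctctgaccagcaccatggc
RPL41: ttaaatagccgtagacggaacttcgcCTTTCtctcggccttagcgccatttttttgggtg
The letters were searched on the coding strand from 10 bases before to 15 after the start. They stood in 41 of 64 ribosomal protein promoters (64.1%), in 7 of 25 of translation factors and in 6.45% of all promoters. Among the bright genes of the first type the share was 8.99% and among genes at background 6.32%. TPT1, a growth-related protein whose messenger has this start, measured 21429 and 20049 units, RPS3A 17522 and 16917 and RPL41 17158 and 16918.

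By the number among the 100 brightest genes of the first type, actin cytoskeleton genes came after the ribosomal proteins, with 7. Actin and myosin genes were bright in 28 of 36 and at background in 0, with a median of 4961. TMSB10, a thymosin that binds actin monomers, was the brightest gene of the first type at 24462 and 23301 units. ACTB, or beta actin, measured 21849.7 and 21211 there and 95556 and 83630.0 on the second type, where it was the brightest. ACTG1, TPM1 and CFL1 measured 17801 and 16872 (ACTG1), 15532 and 14851 (TPM1) and 14538 and 13657 (CFL1). The muscle-type tropomyosin TPM2 was the lowest at 38.4 and 43.9. Tubulins were bright in 9 of 16: TUBA1B measured 19657 and 18867 and TUBB 13986 and 14303. TUBB3, best known from neurons, was bright at 6145 and 6075, while the platelet form TUBB1 was at background at 16.4 and 4.09. Tubulins are another family of close copies, and without _x_at probe sets 5 were bright.

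Most genes of energy metabolism and protein quality control were bright on the first type. Chaperones were bright in 29 of 38, with PPIA at 18558 and 18201 units, HSPA8 at 15378 and 16138 and the mitochondrial HSPD1 at 13196 and 13628. The muscle heat shock proteins HSPB2, HSPB3 and HSPB7 were at background. Nuclear genes of oxidative phosphorylation were bright in 36 of 46, with COX6C of complex IV at 10059 and 10271 and ATP5F1E of the ATP synthase at 8997 and 8863. The muscle isoform COX7A1 was the 1 member at background, at 17.9 and 1.00. Glycolysis was bright in 11 of 19, led by GAPDH at 17614 and 17374, and its liver and red-cell kinase PKLR was at background at 35.2 and 16.3. The low members named here are isoforms known from other tissues. Proteasome subunits were bright in 22 of 31 and moderate in the rest, led by PSMC2 at 8742 and 9045, with the immune subunit PSMB10 lowest at 514 and 509.8. Splicing proteins of the hnRNP and SR families were bright in 23 of 32, led by HNRNPA1 at 11715 and 10658. By the fewer probe sets of the second type, oxidative phosphorylation genes were bright in 2 of 14 and at background in 5. Proteasome subunits were bright there in 1 of 6 and at background in 2. Chaperones were bright in 7 of 13 there, glycolysis genes in 2 of 5 and splicing proteins in 9 of 20. HSPD1 and the glycolytic ENO1 were moderate there, at 136 and 281 (HSPD1) and 203 and 454 (ENO1).

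**Figure D4:**
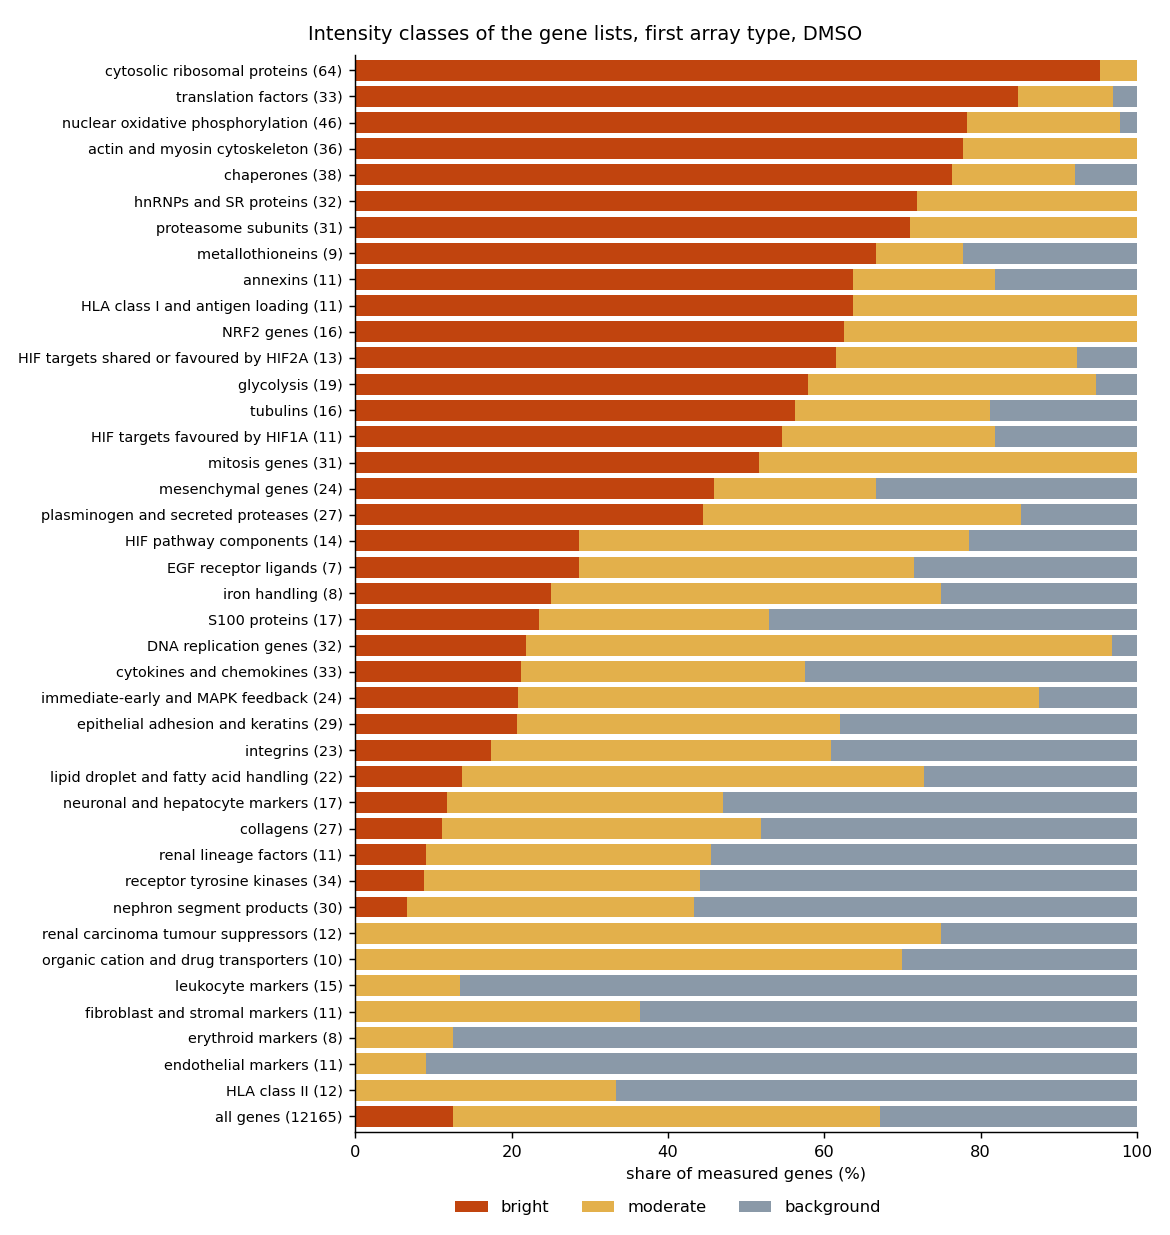
Share of measured genes (%) that were bright, moderate or at background on the first array type in DMSO, by gene list, with the number measured in parentheses and all 12165 genes in the bottom bar. Cytosolic ribosomal proteins are bright in 61 of 64, and leukocyte, endothelial, stromal and erythroid lists have 0 bright members.

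Genes of the cell cycle were bright or moderate with few exceptions on the first type. Mitosis genes were bright in 16 of 31 and moderate in 15, with a median of 1798 and a duplicate fold of at most 1.5 in all 31. BUB3, PTTG1, CDK1 and AURKA led them at 5849 and 6223 (BUB3), 5313 and 5357 (PTTG1), 3999 and 3528 (CDK1) and 3766 and 3611 (AURKA). CDC25C was the lowest at 135 and 124. DNA replication genes were bright in 7 of 32 and moderate in 24, with a median of 875. RRM2, a subunit of ribonucleotide reductase, measured 8128 and 8749.6 units, TYMS, which makes thymidylate, 6653 and 6425 and the clamp PCNA 3174 and 3014. CCND2 was the 1 member at background, at 38.6 and 2.11, beside bright CCND1. By the fewer probe sets of the second type, DNA replication genes were at background in 5 of 6 and mitosis genes in 2 of 8. BUB3 was at background there, at 41.0 and 36.4. Of 24 immediate-early and MAPK feedback genes 5 were bright, with CCN1 at 5761 and 5222, IER3 at 4612 and 5577 and MYC at 1761 and 1724, close above the limit. FOS and FOSB, which rise briefly after stimulation, were at background at 32.2 and 11.4 (FOS) and 34.8 and 16.8 (FOSB).

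Antigen presentation was split between its classes. HLA class I and peptide-loading genes were bright in 7 of 11 and moderate in 4, with a median of 2591, and class II genes were bright in 0 of 12 and at background in 8, with a median of 27.0. B2M, the light chain of class I, measured 14438 and 14232 units and HLA-B 7101 and 7258. By another probe set, on the second type, B2M was at background at 154 and 47.2. The class II transactivator CIITA measured 32.6 and 10.3, and HLA-DRA measured 12.02 and 12.8. CD74, the invariant chain, was the highest of the class II list at 161 and 192, which is moderate. HLA heavy chain genes are close copies that probe sets may not separate. Without _x_at probe sets 3 members of the class I list were bright. These were B2M, PDIA3 and TAPBP, and no HLA heavy chain gene was among them.

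Calcium-binding families were bright in part. Annexins were bright in 7 of 11, led by ANXA2 at 13547 and 13937 and ANXA1 at 9546 and 8705, and ANXA13 and ANXA9 were at background. By another probe set, on the second type, ANXA1 was at background at 101 and 201. S100 proteins were bright in 4 of 17 and at background in 8, beside 12.5% and 32.8% of all genes. S100A10, the partner of ANXA2 at the membrane, measured 14934 and 13926 units and S100A6 12247 and 13168. Other probe sets of the second type made both moderate, at 273 and 616 (S100A10) and 252 and 186 (S100A6). The myeloid members S100A8 and S100A9 and the keratinocyte member S100A7 were at background, with S100A7 at 4.09 and 0.933. Drug and organic cation transporters were bright in 0 of 10 and moderate in 7: ABCC4 measured 917 and 1125, ABCC3 1012 and 793, ABCC1 871 and 856 and ABCB1, or P-glycoprotein, 586 and 513. The renal uptake carrier SLC22A2 and the efflux carrier SLC47A1 were at background at 3.64 and 11.1 (SLC22A2) and 1.66 and 19.6 (SLC47A1).

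Markers of other cell types lay mostly at background on the first type. Leukocyte markers were at background in 13 of 15, endothelial ones in 10 of 11, erythroid ones in 7 of 8 and fibroblast ones in 7 of 11, beside 32.8% of all genes. PTPRC, the common leukocyte antigen, measured 14.5 and 29.2 units, CD3E of T cells 6.53 and 12.2 and CD14 of monocytes 1.09 and 9.79. The endothelial cadherin CDH5 measured 2.01 and 22.2, and PECAM1 measured 1.74 and 52.5, with array 2 above the limit. LUM, the proteoglycan lumican, was moderate at 1152 and 1041 and lay apart from the rest of its list. On the second type endothelial markers were at background in 4 of 5, fibroblast ones in 4 of 4 and leukocyte ones in 1 of 1. The endothelial exception was ROBO4, moderate in the mean at 304 and 71.2. ALAS2, the 1 erythroid marker measured there, was moderate at 292 and 203. In RNA of whole cultures, fewer cells of a type and less RNA per cell cannot be told apart. A list of neuronal and hepatocyte markers had 2 bright members of 17, a share near the 12.5% of all genes. They were SERPINA1, or alpha-1 antitrypsin, at 2976 and 2835 and the neurofilament NEFL at 2621 and 2359.8. ALB and APOA1 of hepatocytes were near or under the limit at 31.8 and 46.0 (ALB) and 4.44 and 2.49 (APOA1), and the synaptic gene SYP measured 4.25 and 3.11. APOA1 was moderate on the second type by another probe set, at 192 and 234.

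The second array type carries mostly other probe sets, and its values were scaled apart. All 100 probe sets that both types hold were brighter on the second, by 2.35-fold to 5.19-fold with a median of 3.79-fold, so no level was set across types. Long non-coding RNAs were mostly measured on this type, 15 against 4 on the first: of the 15, 11 were bright, 3 moderate and 1 at background, with a median of 5062 against 230. SNHG6, SNHG5 and ZFAS1, host transcripts of small nucleolar RNAs, measured 52433 and 44722 (SNHG6), 44591 and 36532 (SNHG5) and 39574 and 36112 (ZFAS1) units. GAS5, a further host transcript, measured 16720.3 and 14708 and NORAD, which binds Pumilio proteins, 11515 and 12889. MALAT1 and NEAT1, which stay in the nucleus, were bright but uneven at 5795 and 9949.7 (MALAT1) and 1816 and 3652 (NEAT1). H19 was at background at 283 and 10.0, with array 1 alone above the limit.

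On the second type ribosomal proteins were bright in 27 of 36, with RPL30 at 76437 and 67218 units, RPS16 at 72722 and 59259.7 and RPL9 at 66254 and 59114. RPS14 and RPLP1, bright on the first type, were at background here at 27.5 and 25.7 (RPS14) and 19.4 and 24.2 (RPLP1). HSPA8 and CANX led the chaperones at 64243 and 64504 (HSPA8) and 40042 and 36157 (CANX). ITGB8 was bright at 6732 and 7809.7, the mitotic scaffold ANLN at 14056 and 12676 and S100A16 at 16127 and 14772. FGFR1 led the receptor kinases at 1476 and 890.3, which is moderate. Over 3868 genes read by different probe sets on both types, 440 were bright on the first and 715 on the second, and 163 were bright on both, which is 37.0% and 22.8% of them. A class thus belongs to the probe set as well as to the gene.

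The spread between probe sets of 1 gene showed the same. Of 4505 genes with several probe sets on the first type, 129 (2.86%) had both a bright one and one at background, and on the second 286 of 3086 (9.27%). HUWE1, a ubiquitin ligase gene, ranked among the 15 brightest genes at 21386 and 19996 units through 1 probe set named _x_at, while its other probe sets averaged far less, between 874 and 695 and 2.21 and 5.19. Its bright value cannot be told apart from binding of a related sequence.

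Duplicates agreed closely where genes were bright and hardly at all at background. Bright genes had a median fold between arrays of 1.07 and 1.13 on the first and second types, moderate genes 1.18 and 1.31, and genes at background 2.34 and 2.49. Of genes above background, 86.3% and 75.9% lay within 1.5-fold. Over all probe sets, as a description across features that are not replicates, Pearson's r of log2(value + 16) was 0.979 and 0.854. Classes were also made from each array alone, with its own limits and a gene taken at its highest probe set on that array. By these, 11117 of 12165 genes had the same class on both arrays of the first type and 7760 of 8790 on the second. On either type 0 were bright on 1 array and at background on the other. The 2 arrays may then read a gene by different probe sets, so these counts do not measure the agreement of 1 probe set.

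Of the 1516 bright genes of the first type, 14 differed by more than 1.5-fold, and 12 of these were higher on array 2. Over all its genes above background, 1116 differed by more than 1.5-fold, and 607 of these were higher on array 2. CDC42, the polarity GTPase, measured 3123 and 7536 units and TNFRSF12A, the TWEAK receptor, 1277 and 2945. SLC26A2, a sulfate transporter, measured 1571 and 2850.1, and PTPRO, a receptor phosphatase, ran the other way at 4467 and 2493. Array 2 was also higher at many secondary probe sets: among 1332 other probe sets above background of bright genes, 164 were more than 1.5-fold higher on array 2 and 42 on array 1, counts made after the values were seen. Secondary probe sets of PAX8, MET, CCND1 and VEGFA were among them, for instance 728 and 1637 for MET and 736 and 1994 for PAX8. The 3′ to 5′ ratio of the ACTB control was 1.22 on array 1 and 0.999 on array 2, and that of GAPDH was 0.966 and 0.861. The part of that in these gaps was not tested. On the second type 97 bright genes differed by more than 1.5-fold, 57 of them higher on array 2, with TRIM8 at 6794 and 2233, EME1 at 10434 and 3443 and KMT2E at 1438 and 4189. The other 3 of the 6 widest gaps were CBX5 at 2509 and 6759, OSBPL8 at 903 and 2349.6 and UHMK1 at 1572 and 4007, all higher on array 2. On that type the ACTB ratio was 1.47 on array 1 and 1.27 on array 2. Of 1181 genes above background there that differed by more than 1.5-fold, 543 were higher on array 2.

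**Figure D5:**
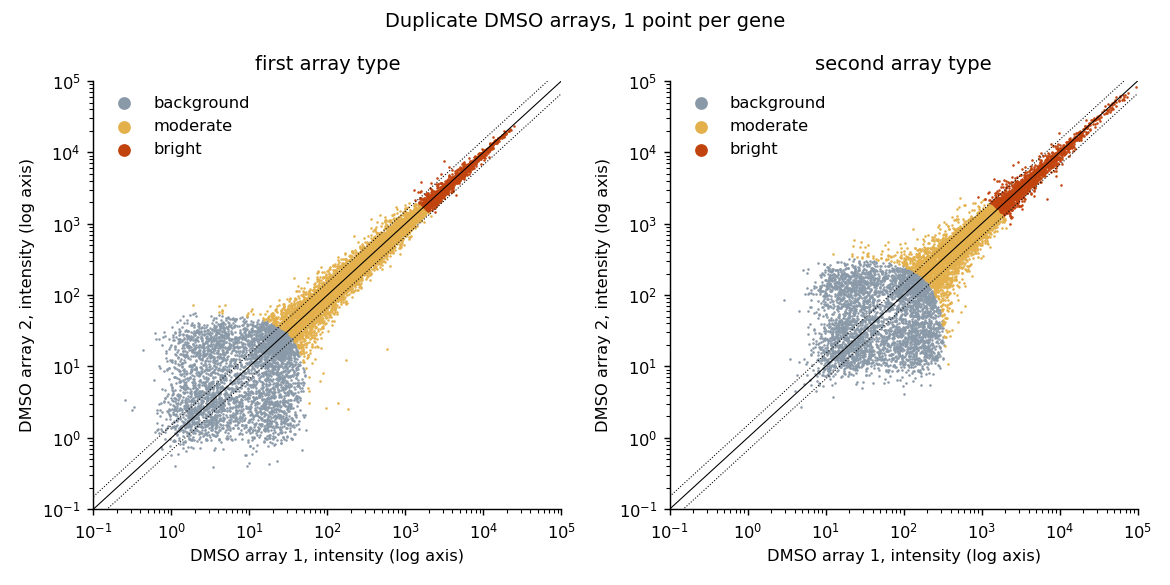
Intensity of each gene on DMSO array 1 (horizontal, log axis) and DMSO array 2 (vertical, log axis) for each array type, coloured by class, with the line of equality and dotted lines at 1.5-fold. Bright genes hug the line, with a median fold of 1.07 and 1.13, and genes at background scatter, with 2.34 and 2.49.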

How the data were processed

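Biotin-labelled RNA of 786-O cells was hybridised to Affymetrix arrays of 2 types, from 1 μg of total RNA per the labels' protocols. The deposited values are linear intensity values per probe set. The submitters' processing notes name Affymetrix Expression Console as the tool, and neither its version nor its algorithm is given in the sources used here. With 2% trimmed at either end, the mean intensity was 500.2 on both DMSO arrays of the first type and 500.1 on both of the second, so the arrays of a type share a common level.

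The 62 and 88 control probe sets were left out. Of 22277 and 22665 probe sets, the annotation gave 1 symbol for 19730 and 13588, several for 568 and 212 and none for 1979 and 8865, and only the first of these kinds was named. Symbols were updated by gene ID to RefSeq GRCh38.p14 for 19713 and 13548. A gene was taken at its probe set with the highest mean of the 2 arrays. The background limit came from 148 and 29 reference probe sets, with medians of 9.31 and 83.7, and 38.1% and 59.5% of all probe sets lay under it. The class rule was run on simulated arrays whose changed probe sets lay far above the bright limit or far below the background limit. That run checks the code and not the classes of genes near a limit or the choice among probe sets. Python 3.11.15 with numpy 2.4.6, pandas 2.3.3 and scipy 1.17.1 was used, and promoters were searched in a RefSeq table of GRCh38.p14.

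The 41 gene lists, the marker genes and the naming rule below were chosen with earlier results of these data known. The rule named the 4 markers, the 15 and 10 highest genes of the types, up to 5 highest and 3 lowest members of a list (3 and 2 on the second type), all members of lists of 15 or fewer, and the 6 bright genes per type with the widest duplicate gap. AQP1, AQP3, CDH1, CDH2, COL4A3, COL4A6, CXCL5, EPCAM, FABP7, IL17A, IL1B, IL32, KCNJ1, KRT8, NQO1, RPL41, S100A8, S100A9, SCNN1A, SLC12A1, SNAI2, TNF and TUBB3 were named beyond the rule, after their values were seen. No test or p-value was computed. Alternatives were quantile normalization, each array alone, other limits, the median over probe sets, leaving out _x_at probe sets and 2-fold agreement; requiring the class of each array was added after the data were seen. The 4 pentamidine arrays were not used.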

Additional observations from a re-analysis of the deposited data

How the results depend on the processing

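With the bright limit at the 80th percentile 2963 and 2959 genes were bright on the first and second types, and at the 95th percentile 731 and 854, when PAX8 and CCND1 became moderate. The share of genes within 1.5-fold on the first type was 84.4% with the background limit at the 90th percentile of the reference, 91.3% at the 99th and 87.2% with the median over probe sets, and 95.96% lay within 2-fold. On the second type it was 84.5% at the 99th percentile and 77.6% with the median over probe sets, and 90.3% lay within 2-fold. Each array alone, with a gene at its highest probe set on that array, gave 1501 to 1529 bright genes on the first type. Genes at background there were 3988 to 3992. On the second type the numbers were 1623 to 1650 and 4421 to 4642. Requiring the class of each array gave 1438 and 1513 bright genes and 3319 and 3023 at background. Counts within the 41 lists moved by over 1.5 times more often, except under quantile normalization, which moved 0. On the first and second types the 95th percentile moved the bright counts of 14 and 11 lists and the median over probe sets those of 8 and 4. Requiring the class of each array moved the background counts of 9 lists on either type, and leaving out an array those of 3 to 6. The limit of background on the second type rests on 29 reference probe sets. The deposited algorithm is unknown, values under the background limit have no reliable order, and saturation at the bright end was not measured. No paired analysis was possible because the values describe 1 group and come from no test.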

Other observations

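Many genes of the first array type were at background on 1 array only. By the limit of each array, 3988 were at background on array 1 and 3992 on array 2, and 3537 on both. For these counts a gene was taken at its highest probe set on each array, which may differ between the arrays. The moderate genes HBG1, TF and FABP7 are examples chosen after their values were seen. HBG1, a fetal haemoglobin gene, measured 182 units on array 1 and 2.50 on array 2, transferrin, TF, measured 95.8 and 2.60, and FABP7, a brain fatty acid binding protein, measured 576 and 17.8. In each of the 3, array 1 was the higher and array 2 lay at background.

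The HUMRGE control probe sets, to which the annotation assigns no gene, also differed between the DMSO arrays. The middle one measured 142 units on array 1 and 496 on array 2 of the first type, and 874 and 3416 on the second type. The M27830 control showed the same order at its 5′ probe set, with 321 and 738 units on the first type and 2121 and 4361 on the second. The 3′ probe set of M27830 measured 7.30 and 4.65 on the first type and 57.3 and 111 on the second. These values lay under the background limits of 30.2 and 177, so no direction is read from them.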
